A study of Rattus norvegicus with 6 samples.

Results

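miR-142, miR-223, miR-150 and miR-155 are the miRNAs by which white blood cells are most often recognised in RNA from a whole tissue. The 5 mature miRNAs described here are rno-miR-142-3p, rno-miR-142-5p, rno-miR-223-3p, rno-miR-150-5p and rno-miR-155-5p, taken by name from the 1191 mature IDs of the deposited count table, of which 699 carry miRBase names. Small RNA had been sequenced from 3 normal rat hearts, labelled control, and from 3 hearts whose left anterior descending coronary artery was tied for 0.5 h and then opened for 0.5 h, labelled ischemia-reperfusion and called reperfused hearts here. All 6 hearts are labelled wild type (WT), and the labels used here give no strain, age or sex, and no region of the heart beside the ligated artery. Each value is the all-isoform count, the tags assigned to a mature miRNA including variants of its ends, given as CPM, the count relative to the size of the library after scaling with TMM factors from edgeR. The species prefix is left out below.

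A miRNA is cut from 1 arm of a short RNA hairpin and guides Argonaute proteins to messenger RNAs, mainly through bases 2 to 8 from its 5′ end, the seed. miR-142 is made in nearly all blood-forming cells, and both of its arms are used. miR-223 belongs to the myeloid line and is abundant in neutrophils and platelets, miR-150 accumulates in mature lymphocytes, where it limits the transcription factor Myb, and miR-155 is induced when lymphocytes and macrophages are activated. Blood left in the vessels, resident macrophages and cells recruited from the blood can all carry them in heart tissue.

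The sequences are shown because the table counts, for each miRNA, both the listed mature sequence and the sequence that was most abundant in these libraries, and for miR-142 these begin at different bases. Listed sequences come from the deposited table, and 4 of the 5 were also found, letter for letter, in RefSeq's rat miRNA table. They are written 5′ to 3′ with U, with bases 2 to 8 in capitals.
miR-142-5p, listed: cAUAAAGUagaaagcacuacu
miR-142-5p, most abundant: cCCAUAAAguagaaagcacu
miR-142-3p, listed: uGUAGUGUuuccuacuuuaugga
miR-142-3p, most abundant: gUAGUGUUuccuacuuuaugga
miR-223-3p, listed: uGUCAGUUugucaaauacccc
miR-150-5p, listed and most abundant: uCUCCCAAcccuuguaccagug
miR-155-5p, listed: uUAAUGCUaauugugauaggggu

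The most abundant miR-142-5p sequence began 2 bases before the listed one and ended 3 bases before its end, and the most abundant miR-142-3p sequence began 1 base later and ended at the same base. Bases 2 to 8 are therefore different letters in both. The most abundant sequences of miR-223-3p and miR-155-5p kept the listed start and were 1 base longer at the 3′ end. A start other than the listed one was found for 6.91% of the 304 tested miRBase-named miRNAs whose sequences could be aligned, 14 with a later start and 7 with an earlier one, and the start 2 bases earlier in 2 of them, miR-142-5p included. No other miRBase-named ID in the table shares bases 2 to 8 with any of the sequences above. The 2 arms of miR-142 are set in capitals in the hairpin, which RefSeq places on the plus strand at chr10:73055104-73055190 of GRCr8, inside the span of the protein-coding gene Tspoap1. The sources used here do not name the genome build behind the counts.
Mir142 hairpin: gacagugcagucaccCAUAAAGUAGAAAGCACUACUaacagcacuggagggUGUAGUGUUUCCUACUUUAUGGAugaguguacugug

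In the same annotation the miR-155 hairpin lies inside the long noncoding RNA gene Mir155hg, its primary transcript, on chromosome 11, and the miR-223 hairpin lies inside a noncoding gene on chromosome X. The miR-150 gene, on chromosome 1, lies within the span of no other listed gene.

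The libraries differed in depth along with the groups. Total all-isoform counts were 6963312 to 8429988 in normal and 1376947 to 2814802 in reperfused libraries, and the entries named as predicted by the authors took 1.09% to 1.29% and 5.46% to 13.6% of them. Of the heart muscle miRNAs, 6 of 6 on the list (miR-1-3p, miR-1b, miR-133a-3p, miR-208a-3p, miR-208b-3p and miR-499-5p) were counted in every library. They summed to 249216 to 442473 CPM in normal and 194999 to 301661 CPM in reperfused libraries. No other tissue was sequenced beside the hearts, so the tissue label was not tested by these counts. Nothing in the labels says that replicates came from separate animals beyond their numbering as hearts, so the spread behind each p-value is that between libraries and may be technical.

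The 5 miRNAs were a small fraction of heart miRNA, and miR-150-5p made up most of it. Together they held 0.0540% to 0.0651% of the counts in normal and 0.0548% to 0.0610% in reperfused libraries, and these ranges overlapped. The 95% Wilson intervals of the single libraries ran from 0.0511% to 0.0589% in reperfused heart 1, the shallowest, and from 0.0634% to 0.0669% in normal heart 2. In normal heart 3, which had the lowest share of the 6 libraries, the interval was 0.0524% to 0.0556%. These intervals describe counting error within 1 library alone and leave out the spread between libraries. PCR copies of a molecule cannot be recognised without molecular identifiers, so the intervals may also be too narrow. miR-150-5p was 59.5% to 71.9% of the counts of the 5 in normal hearts and 67.3% to 72.4% after reperfusion, and the arms of miR-142 together were 23.5% to 35.1% and 21.2% to 26.8%. On the TMM scale the sum was 682, 685 and 601 CPM in normal hearts 1 to 3 and 489, 507 and 593 CPM in reperfused hearts 1 to 3. These ranges did not overlap, but the difference, a log2 value of -0.31, was -0.07 with total counts and 0.15 with named-only factors, that is, TMM factors computed from miRBase-named miRNAs. In a bulk sample, fewer leukocytes and less of these miRNAs per leukocyte cannot be told apart.

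The order of levels was the same in each of the 6 libraries: miR-150-5p, miR-142-5p, miR-142-3p, miR-155-5p, miR-223-3p. A read covers a whole miRNA, so counts were not divided by length, while ligation can favour some sequences over others. Among miRBase-named miRNAs ranked by mean CPM, they stood at ranks 84, 115, 141, 187 and 212 in normal hearts and 79, 125, 145, 179 and 219 after reperfusion. Each neighbour in this order was separated from the next by the full range of its 3 libraries, except miR-155-5p and miR-223-3p after reperfusion, whose ranges overlapped. miR-150-5p exceeded miR-142-5p by 2.76 to 4.52 times within normal libraries and by 4.18 to 5.12 times within reperfused libraries.

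**Figure D1:**
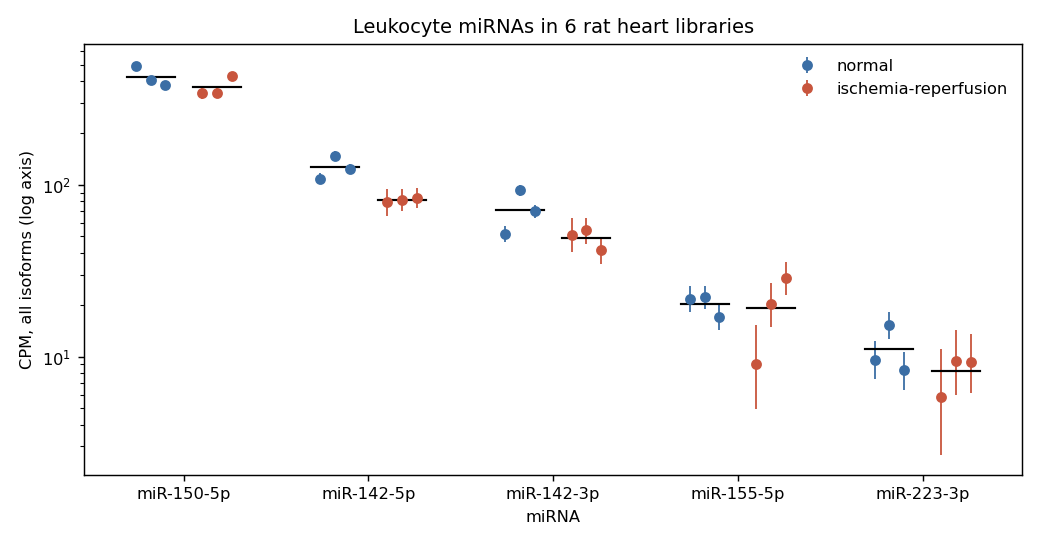
CPM (log axis) of the 5 miRNAs in each library, with 95% Poisson counting intervals as bars and group means of 3 libraries as black lines. The reperfused libraries of miR-142-5p, at 79.0 to 83.9 CPM, lie below all normal libraries, at 108.6 to 147.5 CPM, and the groups of the other miRNAs overlap.

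**Figure D2:**
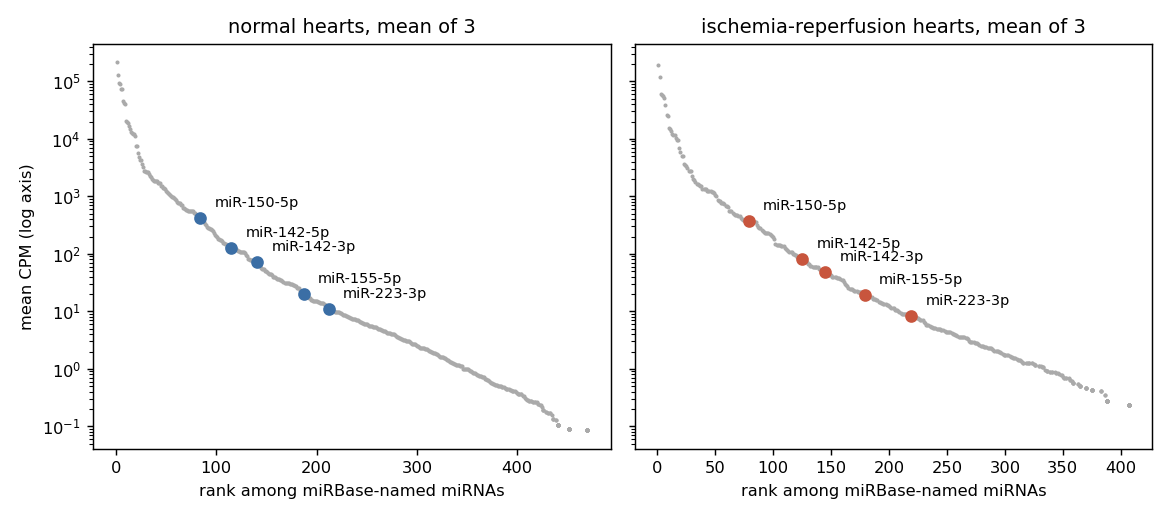
Mean CPM over 3 libraries (log axis) against rank for miRBase-named miRNAs with counts in that group, with the 5 leukocyte miRNAs marked. They lie between ranks 84 and 212 in normal hearts and between ranks 79 and 219 after reperfusion.

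The design compares the normal heart with the heart soon after its artery is opened again. miR-142-5p was called lower after reperfusion and the other 4 were not called in either direction by edgeR's quasi-likelihood test (Benjamini-Hochberg adjusted p under 0.05). All 5 passed the filter on low counts. The same test called 42.7% of the 524 entries tested, 33.4% as higher and 9.35% as lower, and 14.8% of the 305 miRBase-named miRNAs, 13.8% as lower. A count of 1 in 5 is near that background. The log2 fold change was below 0 for 5 of 5, as for 85.2% of miRBase-named miRNAs, and the median over the 5 was -0.42 beside -0.40 over miRBase-named miRNAs and -0.17 over all entries.

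miR-142-5p was counted 689, 1158 and 937 times in normal hearts 1 to 3, or 108.6, 147.5 and 123.8 CPM. It was counted 122, 199 and 243 times in reperfused hearts 1 to 3, or 79.0, 81.8 and 83.9 CPM. Every reperfused library was below every normal library, and the 3 lay within a narrow range. CPM ranges did not overlap, in this direction, for 1 of the 5 miRNAs and for 38.7% of tested miRBase-named miRNAs. The log2 fold change was -0.63 ± 0.18 (SE, n = 3 against 3; edgeR adjusted p = 0.0248), and 29.2% of tested miRBase-named miRNAs had a lower value. The call depended on single libraries and on scaling. It was lost without normal heart 2 (adjusted p = 0.0831) and without reperfused heart 1 (0.106), 2 (0.0914) or 3 (0.0992), and it held without normal heart 1 (0.0155) or 3 (0.0434). It was also lost with total counts (-0.40; 0.152), with named-only factors (-0.17; 0.584) and in a fit of miRBase-named miRNAs by themselves (-0.28; 0.433).

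miR-142-3p, from the other arm of the same hairpin, was at 51.7, 92.7 and 70.3 CPM in normal hearts 1 to 3, from 328, 728 and 532 counts. After ischemia-reperfusion it was at 51.1, 54.3 and 41.8 CPM in replicates 1 to 3, from 79, 132 and 121 counts. The groups overlapped, because normal heart 1 stood at the level of the reperfused hearts. The log2 fold change was -0.55 ± 0.26 (SE; edgeR adjusted p = 0.144). Leaving out normal heart 1 made it pass as lower (-0.81; adjusted p = 0.0273), as did upper-quartile factors (-1.06; 0.00933).

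The ratio of the arms does not depend on scaling. There were 2.10, 1.59 and 1.76 counts of miR-142-5p for each count of miR-142-3p in normal hearts 1 to 3, and 1.54, 1.51 and 2.01 in reperfused hearts 1 to 3. The 5p arm was thus the more abundant in 6 of 6 libraries, and the groups overlapped (difference of log2 ratios -0.11; two-sided exact permutation p = 0.5). This p, like the exact p-values that follow, belongs to 17 comparisons within libraries, 7 of them added after the data were seen, and was 0.654 after Benjamini-Hochberg adjustment over them. With 3 libraries against 3 the smallest possible p is 0.1.

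miR-223-3p, the myeloid member, was the least abundant. It was counted 61, 120 and 63 times in normal hearts 1 to 3 (9.61, 15.3 and 8.33 CPM) and 9, 23 and 27 times in reperfused hearts 1 to 3 (5.83, 9.46 and 9.33 CPM). The groups overlapped. At 9 counts the 95% Poisson interval in reperfused heart 1 was 2.66 to 11.1 CPM, which holds the normal values of replicates 1 and 3. The log2 fold change was -0.42 ± 0.43 (SE; edgeR adjusted p = 0.453), and the sign turned with named-only factors (0.018).

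miR-150-5p, the lymphocyte member, was at 490.4, 407.5 and 381.9 CPM in normal hearts 1 to 3 and at 343.8, 341.7 and 429.4 CPM in reperfused hearts 1 to 3. Its counts were 3112, 3199 and 2890 in normal and 531, 831 and 1243 in reperfused hearts, the deepest of the 5. Ischemia-reperfusion replicate 3 lay above 2 of the normal hearts and the groups overlapped. The log2 fold change was -0.20 ± 0.17 (SE; edgeR adjusted p = 0.384). Its sign turned with total counts (0.037), with named-only factors (0.25) and in a fit of miRBase-named miRNAs by themselves (0.14), and it passed as lower with upper-quartile factors (-0.70; adjusted p = 0.0472).

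miR-155-5p, the activation-induced member, was at 21.7, 22.2 and 17.05 CPM in normal hearts 1 to 3, from 138, 174 and 129 counts. In reperfused hearts 1 to 3 it was at 9.06, 20.1 and 28.7 CPM, from 14, 49 and 83 counts. These hearts lay both below and above the normal range, and their SD, 9.83 CPM around a mean of 19.3 CPM, was the widest of the 5 relative to the mean. The log2 fold change was -0.06 ± 0.44 (SE; edgeR adjusted p = 0.918). It was 0.34 without reperfused heart 1 (0.454), and positive with RLE factors (0.025), total counts (0.16) and named-only factors (0.34).

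Scaling moved all 5 values together. The median log2 fold change of miRBase-named miRNAs was -0.40 with TMM, -0.29 with RLE, -0.89 under upper-quartile scaling, -0.16 with total counts and 0.05 with named-only factors. Relative to that median, miR-142-5p was at -0.24 to -0.22 in these 5 scalings, miR-142-3p at -0.17 to -0.11, miR-223-3p at -0.03 to -0.00046, miR-150-5p at 0.19 to 0.20 and miR-155-5p at 0.29 to 0.39. The calls over all entries, 175 higher and 49 lower with TMM, were 172 and 162 under upper-quartile scaling, 182 and 20 with total counts, and 186 and 6 with named-only factors.

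**Figure D3:**
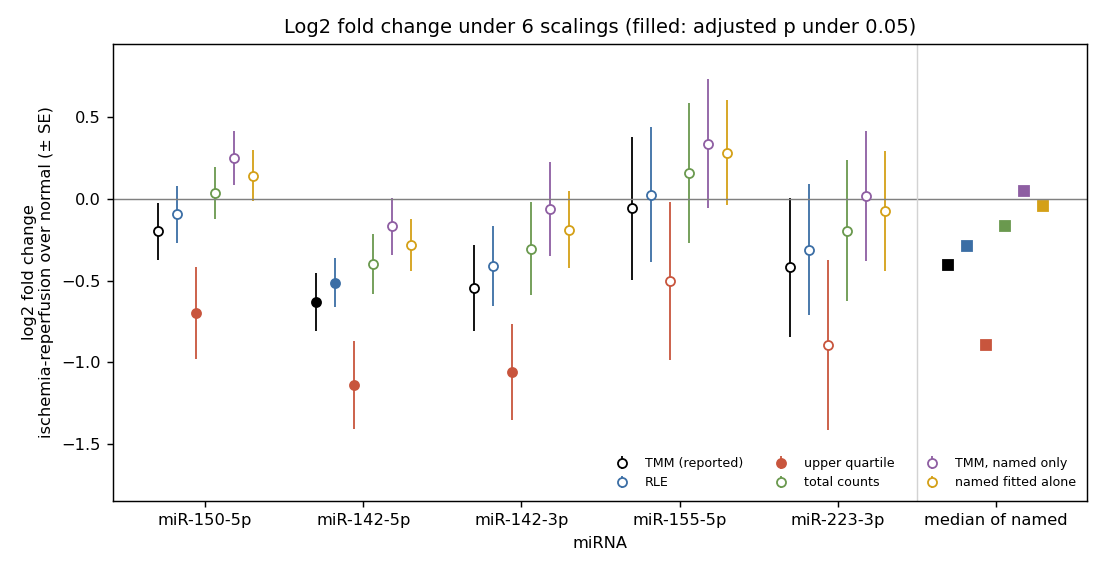
Log2 fold change (reperfused over normal, bars are SE, n = 3 against 3) of each miRNA under 6 scalings, with the median over tested miRBase-named miRNAs as squares on the right. Filled points passed adjusted p 0.05; the points of each miRNA move with the median, which ran from -0.89 to 0.05.

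Setting each miRNA against miR-150-5p within its own library also removes scaling. The log2 ratio of miR-142-5p to miR-150-5p was -2.18, -1.47 and -1.62 in normal hearts 1 to 3 and -2.12, -2.06 and -2.35 after reperfusion, with normal heart 1 among the latter (difference -0.42; exact permutation p = 0.3, adjusted p = 0.637). The differences for miR-142-3p, miR-223-3p and miR-155-5p were -0.31, -0.22 and -0.02, with overlapping groups and exact permutation p of 0.4, 0.6 and 1.

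The authors' deposited table gave folds of reperfused over normal, computed on normalized group means with 10 added, of 0.798 for miR-142-5p, 0.851 for miR-142-3p, 1.04 for miR-150-5p, 1.08 for miR-223-3p and 1.15 for miR-155-5p. In the authors' deposited table the smallest false discovery rate of the 5 was 0.289, for miR-142-5p (p = 0.1).

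The make-up of each miRNA by sequence was measured next, as percent of its own all-isoform counts. Over the 6 libraries together the listed mature sequence held 27.99% of miR-150-5p, 20.4% of miR-155-5p, 13.1% of miR-142-3p, 11.7% of miR-142-5p and 5.61% of miR-223-3p, beside a median of 15.6% over tested miRBase-named miRNAs. For miR-142-5p the sequence starting 2 bases earlier was 46.2%, 45.2% and 46.6% in normal hearts 1 to 3 and 52.5%, 53.8% and 48.6% in reperfused hearts 1 to 3. The reperfused hearts were higher in 3 of 3 and the groups did not overlap (difference 5.61 percentage points; exact permutation p = 0.1, adjusted p = 0.34). The 95% Wilson interval in reperfused heart 1, from 64 of 122 counts, was 43.7% to 61.1% and held all 3 normal values, as did that of reperfused heart 3 (42.3% to 54.8%), while that of reperfused heart 2 (46.8% to 60.6%) lay above them.

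The later-starting sequence of miR-142-3p was 32.3%, 32.7% and 31.6% in normal hearts 1 to 3 and 36.7%, 25.8% and 30.6% in reperfused hearts 1 to 3, with overlapping groups (exact permutation p = 0.7). It outnumbered the listed sequence, at 11.1% to 15.9%, in 6 of 6 libraries. As it was picked for being the most abundant in these same libraries, this is not a separate result. The longer sequence of miR-155-5p was 34.8%, 35.1% and 45.0% in normal and 28.6%, 26.5% and 30.1% in reperfused hearts, while the listed one was 20.3%, 21.3% and 13.2% against 28.6%, 30.6% and 22.9%. Neither pair of groups overlapped (differences -9.86 and 9.11 percentage points; exact permutation p = 0.1 and adjusted p = 0.34 for both). Both percents are shares of the same all-isoform counts, so the differences are not independent of each other. These percents rest on as few as 4 counts. Non-overlapping groups were found for 24.9% of 289 miRBase-named miRNAs in the percent of the most abundant sequence and for 23.2% in that of the listed one. The listed sequence of miR-150-5p, also its most abundant one, ranged from 25.6% to 29.6% and the groups overlapped (exact permutation p = 0.4). For miR-223-3p the percents rest on 0 to 38 counts, and the groups overlapped for both sequences (exact permutation p = 0.5 and 0.3).

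**Figure D4:**
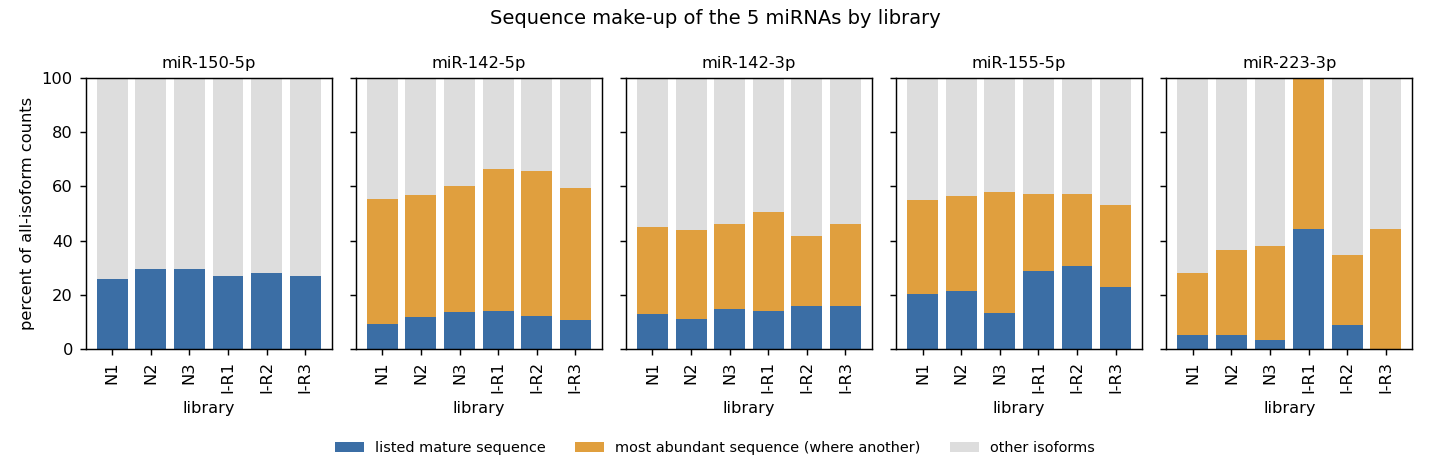
Percent of the all-isoform counts of each miRNA held by the listed mature sequence, by the most abundant sequence where that is another one, and by other isoforms, for normal (N) and reperfused (I-R) libraries. The most abundant miR-142-5p sequence, which starts 2 bases earlier, takes 45.2% to 53.8% in the 6 libraries, and the bars of miR-223-3p rest on 9 to 120 counts.

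The other arms of the remaining 3 hairpins were rare. miR-150-3p was counted 56, 39 and 65 times in normal hearts 1 to 3 and 3, 2 and 12 times in reperfused hearts 1 to 3. As a share of miR-150-5p in the same library this was 1.80%, 1.22% and 2.25% against 0.565%, 0.241% and 0.965%, and the groups did not overlap (difference -1.17 percentage points; exact permutation p = 0.1, adjusted p = 0.34). In edgeR the log2 fold change of miR-150-3p was -1.64 ± 0.63 (SE; adjusted p = 0.0758). miR-155-3p, with 15, 16 and 43 counts in normal hearts and 6 in reperfused heart 3, had no count listed in reperfused hearts 1 and 2; it was 10.9%, 9.20% and 33.3% of miR-155-5p in normal hearts and 7.23% in replicate 3 (exact permutation p = 0.1, adjusted p = 0.34; edgeR adjusted p = 0.183). miR-223-5p had 23, 16 and 15 counts in normal hearts and 6 and 4 in reperfused hearts 2 and 3, was listed with none in replicate 1, and overlapped between groups as a share of miR-223-3p (exact permutation p = 0.5). The table lists no count below 2 and the reperfused libraries are the shallower ones; the part of this in the low shares was not tested. Over 90 hairpins with both arms listed and at least 50 counts of the lesser arm, that arm's share was lower without overlap in 15.6%, and in 20.7% of the 29 whose lesser arm had 50 to 200 counts.

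**Figure D5:**
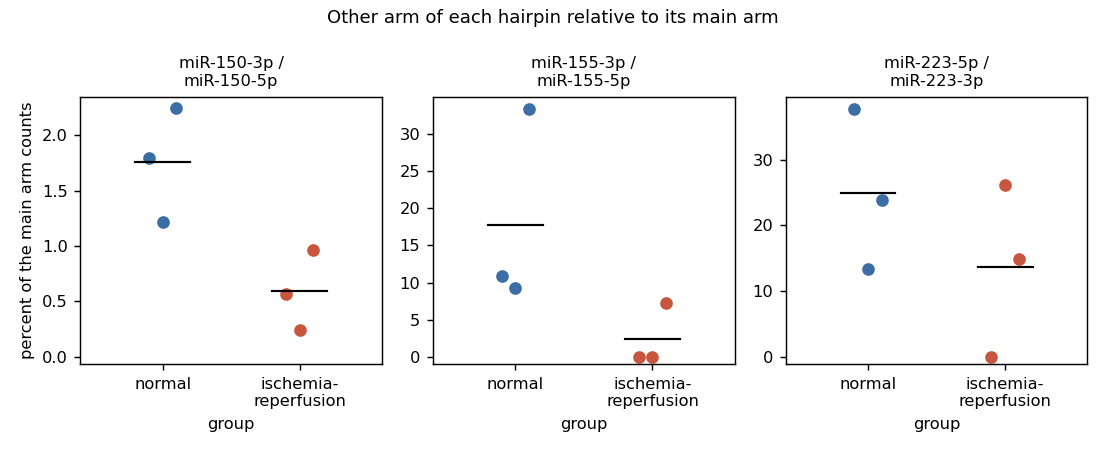
Counts of the other arm as percent of the main arm of the same hairpin, by library, with group means of 3 libraries as black lines; blank cells are drawn at 0. For miR-150 the normal hearts lie at 1.22% to 2.25% and the reperfused hearts at 0.241% to 0.965%.

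Other miRNAs known from immune cells showed no call. Of 12 on the list, 10 were tested, and edgeR called 0 higher and 0 lower (0 with an unadjusted p under 0.05). It called 14.8% of the 305 tested miRBase-named miRNAs, and a count of 0 in 10 is near that background. Of the same 305, 77 had an unadjusted edgeR p under 0.05. The log2 fold change was below 0 for 9 of the 10, as for 85.2% of miRBase-named miRNAs. The median was -0.26 beside -0.40 over miRBase-named miRNAs. miR-146a-5p, which restrains signalling from Toll-like receptors, averaged 3287 ± 450 CPM in normal and 2712 ± 284 CPM in reperfused hearts (SD, n = 3 each; edgeR adjusted p = 0.211). Its relative miR-146b-5p was at 439 ± 19.3 and 355 ± 46.1 CPM (SD, n = 3 each; edgeR adjusted p = 0.158). miR-342-3p, abundant in lymphocytes, was at 54.3 ± 9.09 and 51.6 ± 15.2 CPM (SD, n = 3 each; edgeR adjusted p = 0.859). miR-511-5p, encoded in the macrophage mannose receptor gene, and miR-342-5p had at most 8 and 4 counts in a library and were not tested. Several miRNAs on the list, such as miR-21-5p, miR-29b-3p and the miR-181 miRNAs, are also made by heart muscle, vessel or connective tissue cells.

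Markers of other cells were read beside the leukocyte miRNAs. The heart muscle list overlapped between groups, and edgeR called 1 of its 6 members lower and 0 higher. The 1 called was miR-499-5p (means of 19332 and 11869 CPM, edgeR adjusted p = 0.0307). The call of miR-499-5p with libraries left out is not given here. miR-1-3p had the lower log2 fold change, -1.51, without a call (edgeR adjusted p = 0.112). The red cell list (miR-451-5p, miR-144-3p, miR-144-5p and miR-486) summed to 2525 to 2936 CPM in normal and 1460 to 1890 CPM in reperfused libraries without overlap, and 3 of 4 were counted in every library. That sum was mostly miR-486, which is also made in muscle and was called lower (means of 2599 and 1511 CPM; edgeR adjusted p = 0.0103). The other 3 had higher means in reperfused hearts: miR-451-5p was at 91.9 and 213 CPM (log2 fold change 1.22; edgeR adjusted p = 0.195), and miR-144-3p (0.84 and 1.28 CPM) and miR-144-5p (0.23 and 0.89 CPM) were not tested. The smooth muscle list was at 124227 to 147019 CPM in normal and 117985 to 124187 CPM in reperfused libraries, ranges that all but met, and edgeR called 0 of its 2 members. The endothelial (59778 to 117765 and 55679 to 63582 CPM) and fibroblast lists (2279.9 to 2957 and 2285 to 2731 CPM) overlapped between groups, and the 1 liver marker, miR-122-5p, was at 30.4 to 82.6 and 79.1 to 866.9 CPM and was called higher (log2 fold change 3.26; edgeR adjusted p = 0.0202). Leaving out 1 library ended the call of miR-486 for reperfused heart 2 (edgeR adjusted p = 0.0588) and that of miR-122-5p for normal heart 2 (0.0637), normal heart 3 (0.0640) or reperfused heart 1 (0.0548). These sums and calls used TMM factors, and their values under other scalings are not given here. Over all entries the lower calls went from 49 with TMM to 6 with named-only factors. The part of these markers in the lower level of miR-142-5p was not tested.

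The miRNAs whose pattern over the 6 libraries was most like that of each member were found by the root mean square difference of log2(CPM + 1) values, each centred on its own mean, among miRBase-named miRNAs with a mean of at least 10 CPM. The libraries share depth and group, so likeness here includes both. Closest to miR-142-5p were miR-145-3p (0.102), miR-351-5p (0.102) and miR-125b-1-3p (0.112), beside a median difference of 0.285 over the 211 compared. Closest to miR-142-3p were miR-363-3p (0.155), miR-218a-5p (0.156) and miR-140-5p (0.164), and its own partner arm miR-142-5p was at 0.182. miR-150-5p was nearest to miR-16-5p (0.0558), let-7b-5p (0.0944) and miR-152-3p (0.0945). miR-223-3p was nearest to miR-103-3p (0.187), miR-125a-5p (0.193) and miR-195-5p (0.199). miR-155-5p was nearest to miR-361-5p (0.203), miR-221-5p (0.233) and miR-342-3p (0.260). No member was among the nearest 3 of another (miR-223-3p, with a mean below 10 CPM, was not a candidate), and between members the difference ran from 0.182 for the arms of miR-142 to 0.614 for miR-142-3p and miR-155-5p.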

How the data were processed

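Small RNA libraries of 6 rat hearts were grouped by the sample titles. The deposited table holds raw tag counts, not normalized, in 3 measures per the file headers: the listed mature sequence alone, its most abundant sequence, and every isoform. An empty cell was taken as 0, and 2 was the smallest count listed. The authors' normalized values are whole numbers treated as a score, and their comparison gives a fold and p-values; 18 columns of normalized values repeated there were not used. Novoalign 2.07.11 appears in the submitters' processing notes; its settings, the genome build and the miRBase release are not given in these sources.

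Each mature ID was represented by its row of highest total. All entries were fitted together with edgeR 4.0.16 under R 4.3.3: filterByExpr (groups, minimum count 10), TMM factors, the robust quasi-likelihood F test, and Benjamini-Hochberg adjustment over 524 entries. SE was obtained from the fold change and its F value. Alternatives used limma 3.58.1 and DESeq2 1.42.0. The edgeR fit was also run on simulated counts, and the outcome is not given here. Rises and falls were equally many in the simulation, unlike the calls in these data, so it does not vouch for the scaling. Within-library percents and ratios were compared with two-sided exact permutation tests (SciPy 1.17.1). Named miRNAs are the 5 members, their other arms, the 3 of nearest pattern to each, fixed cell markers, and list members that passed. Other list members that are named (miR-146a-5p, miR-146b-5p, miR-342-3p, miR-511-5p, miR-511-3p, miR-147 and miR-342-5p with values) were picked once their values were known. The members and lists were chosen with earlier results of these data known.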

Additional observations from a re-analysis of the deposited data

How the results depend on the processing

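Under 18 alternatives the sign of miR-142-5p and miR-142-3p was negative in each; miR-142-5p was called in 7 of them and miR-142-3p in 2. Beside the scalings given with each miRNA, the call of miR-142-5p was lost in counts of the listed mature sequence (-0.33, edgeR adjusted p = 0.517), of the most abundant sequence (-0.40; 0.184) and in the authors' normalized values (-0.34; limma 0.215). It held with RLE factors, DESeq2, limma-voom, no filter and upper-quartile factors. The replicate number as a block gave -0.62 (0.0618) and 0 members called. Same-numbered libraries did not deviate together (correlations -0.236, 0.0123 and -0.161; 0 of 6 libraries correlated best with their own number). With 3 libraries per group this cannot exclude a batch shared by number. The numbers are not read as pairs because the labels do not say that they pair hearts.

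Leaving out each library moved miR-142-5p between -0.81 and -0.52, miR-142-3p between -0.81 and -0.31, miR-223-3p between -0.66 and -0.15, miR-150-5p between -0.34 and -0.07, and miR-155-5p between -0.34 and 0.34, and the members called between 0 and 2. Members called were 3 under upper-quartile scaling, and 0 with total counts, named-only factors, miRBase-named miRNAs fitted alone, listed or most abundant sequence counts and the authors' values. Total counts gave miR-142-5p -0.40, named-only factors -0.17 and miRBase-named miRNAs alone -0.28; upper-quartile factors gave miR-142-3p -1.06 and miR-150-5p -0.70.

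The sign of miR-223-3p turned with named-only factors (0.018), most abundant sequence counts (0.058) and the authors' values (0.21); in listed sequence counts it was filtered out. That of miR-150-5p turned with total counts (0.037), named-only factors (0.25), these fitted alone (0.14) and the authors' values (0.061). That of miR-155-5p turned with RLE (0.025), total counts (0.16), named-only factors (0.34), these fitted alone (0.28), DESeq2 (0.038), listed sequence counts (0.69) and the authors' values (0.19). None of these turned values passed.

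The log2 arm ratio difference of miR-142 was 0.12 in most abundant sequence counts against -0.11. The log2 difference of the summed members was -0.84 under upper-quartile scaling, -0.070 with total counts and 0.15 with named-only factors. Entries called fell from 224 to 8 with miRBase-named miRNAs alone, 38 in listed sequence counts and 118 in most abundant sequence counts, where fewer entries were tested. The cause of the other changes was not tested. Counts of 9 to 27 for miR-223-3p and 14 to 83 for miR-155-5p widen the counting intervals of the ischemia-reperfusion libraries.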
